A study of Homo sapiens with 12 samples.

Results

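The 10 genes described here encode parts of the WNT pathway: the secreted proteins DKK1 and DKK3, the ligands WNT7B and WNT5A, the receptors FZD2 and FZD6, the co-receptors LRP5 and LRP6, the nuclear factor TCF7L2 and the feedback target AXIN2. They were chosen by name, with earlier results of these data known. All 10 were among the 15871 protein-coding genes of the count table, which holds 29035 genes in all. The study followed A549 cells, an established human lung carcinoma line, through the epithelial-to-mesenchymal transition (EMT) induced by TGFβ. Cells were harvested before TGFβ was added (0 h) and at 5 later times with 4 ng/mL TGFβ, the first after 0.5 h, then after 12 h, 24 h, 48 h or 96 h, and the medium with TGFβ was renewed every other day. At each of the 6 time points, single cells were sorted into 384 wells for each of 2 CEL-Seq2 libraries. CEL-Seq2 captures the 3′ end of an mRNA and tags each captured molecule with a unique molecular identifier (UMI), so a UMI stands for 1 mRNA molecule and does not scale with gene length. No cells kept without TGFβ for the same time were compared, so time in culture and TGFβ cannot be told apart. Whether the 2 replicates of a time came from separate cultures is not stated in the labels, and p-values thus describe the spread of these libraries alone, which may be technical.

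WNT ligands are secreted glycoproteins that bind Frizzled (FZD) receptors, and in the canonical branch the co-receptors LRP5 and LRP6 join the complex, β-catenin is no longer degraded, and TCF/LEF factors on DNA switch on target genes such as AXIN2. DKK1 binds LRP5 and LRP6 and blocks this branch. DKK3 is a divergent relative of DKK1, and its part in WNT signaling differs between reports. WNT and TGFβ signals are both known to act in EMT of lung epithelial cells.

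After limits on UMIs, genes and mitochondrial counts, 1871 of 4608 wells were kept, 54 to 217 per library, and their summed protein-coding UMIs ranged from 1264044 to 4500036 per library. The 96 h libraries held the fewest cells (54 and 64), so low counts are least certain there. Replicate 2 of 48 h was the shallowest per cell, with a median of 14137 UMIs. Of 6 epithelial markers, the keratins KRT8 (585 to 1346 CPM) and KRT18 (407 to 1884 CPM) were present in every library, while KRT19 reached down to 3.89 CPM, EPCAM to 0.778, CLDN4 to 0.274 and CDH1 to 0, and the list summed to 1079 CPM at 96 h against 2651 CPM at 0 h. Of 7 alveolar type II markers, SFTPA1 and NKX2-1 were not found by name among the protein-coding genes counted. The others summed to 8.94 CPM at 96 h against 6.07 CPM at 0 h. ABCA3 was at 3.31 to 8.56 CPM, and SFTPC and NAPSA were at most at 0.254 and 0.255 CPM. Of 5 immune markers, CD3E, CD68 and LYZ were not found by name among the protein-coding genes counted. PTPRC was at 0 throughout and CD14 was at 0 to 9.27 CPM. The immune list thus summed to 0.389 CPM at 96 h against 8.19 CPM at 0 h. The 6 fibroblast markers summed to 4.83 CPM at 96 h against 1.44 CPM at 0 h. The part of other cell types in the results was not tested.

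DKK1 (chr10:52314281-52318042, plus strand, 4 exons, GRCh38) was the member with the widest change, and its promoter is shown because the fall of DKK1 carries the main result. LGR4, an R-spondin receptor, is shown beside it as the gene whose profile over the 12 libraries was most like that of DKK1 by Pearson's r (by Spearman's rho it was MRPS35). Both sequences are RefSeq promoters of 300 bases (GRCh38.p14), from 250 bases before to 50 after the transcription start, at chr10:52314031-52314330 on the plus strand for DKK1 and chr11:27472741-27473040 on the minus strand for LGR4. Capitals mark 4 words searched on both strands: the SMAD word CAGAC, the TCF word CTTTGA, the AP-1 word TGACTCA and the TATA word TATAAA.
DKK1: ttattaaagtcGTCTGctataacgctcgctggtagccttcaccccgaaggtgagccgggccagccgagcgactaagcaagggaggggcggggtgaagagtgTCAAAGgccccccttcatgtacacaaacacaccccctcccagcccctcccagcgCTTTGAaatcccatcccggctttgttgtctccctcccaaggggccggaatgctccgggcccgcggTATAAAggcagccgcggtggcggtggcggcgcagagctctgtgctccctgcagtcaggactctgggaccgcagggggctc
LGR4: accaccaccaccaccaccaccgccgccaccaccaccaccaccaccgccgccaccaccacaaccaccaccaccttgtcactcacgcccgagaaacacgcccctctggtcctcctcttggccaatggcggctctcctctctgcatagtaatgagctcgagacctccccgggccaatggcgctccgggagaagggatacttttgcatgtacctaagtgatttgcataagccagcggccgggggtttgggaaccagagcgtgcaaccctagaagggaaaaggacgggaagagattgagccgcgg

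The DKK1 promoter held the TCF word 2 times, beginning at -149 and -95 from the start. The SMAD word began at -239 and the TATA word at -30, and the AP-1 word had no match. None of the 4 words was found in the LGR4 window, and none of the marked words overlapped another. Of all 35116 promoters of this length, 12.9% held the TCF word, 45.3% the SMAD word, 4.95% the AP-1 word and 11.5% the TATA word. These matches describe the letters only. FZD6 was left out of this search, and entries for 4 of the other members were used. TCF7L2 held the SMAD word once, at +19 of the first of its 3 starts, while LRP5 and WNT5A held none of the words.

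DKK1 fell and DKK3 rose over the same 96 h. DKK1 was at 426 and 521 CPM (UMIs per 1000000 protein-coding UMIs, scaled between libraries) at 0 h, 382 and 401 (0.5 h), 130 and 152 (12 h), 160 and 221 (24 h), 33.8 and 45.9 (48 h), and 6.22 and 6.66 at 96 h, replicate 1 before replicate 2. Every library from 12 h on was below every library of 0 h and 0.5 h, and the libraries of 24 h lay above those of 12 h. The log2 change against 0 h was -1.75 ± 0.17 (SE; 12 h), -1.32 ± 0.17 (24 h), -3.59 ± 0.20 (48 h) and -6.19 ± 0.27 (96 h), with edgeR adjusted p of 4.75e-08, 3.24e-06, 1.36e-12 and 2.46e-14. At 96 h the level was 0.0137 of that at 0 h, from 18 UMIs in all against 3356 UMIs at 0 h. The antisense gene PRKG1-AS1 overlaps DKK1, though not its last exon, and antisense genes also overlap WNT5A, FZD6 and TCF7L2, again outside the last exon. Where counting ignores strand, reads of such pairs cannot be told apart.

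The fall came in steps. A change passed where its p, adjusted by Benjamini-Hochberg across every gene tested, was under 0.05. At 0.5 h DKK1 was at -0.27 ± 0.16 on the log2 scale against 0 h, which did not pass (adjusted p = 1). Between consecutive times, DKK1 fell at 12 h against 0.5 h (-1.47 ± 0.17, edgeR adjusted p = 7.91e-07), at 48 h against 24 h (-2.27 ± 0.19, adjusted p = 3.55e-08) and at 96 h against 48 h (-2.60 ± 0.32, adjusted p = 0.000103). The step at 24 h against 12 h was 0.43 ± 0.17 and did not pass (adjusted p = 0.852). Each of these called falls of DKK1 passed under all 20 alternatives tried.

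DKK3 (chr11:11956207-12009769, minus strand, 7 exons) was at 6.85 and 9.27 CPM (0 h), 9.31 and 12.4 (0.5 h), 15.3 and 13.9 (12 h), 13.1 and 9.63 (24 h), 23.7 and 23.7 (48 h), and 32.7 and 37.3 at 96 h. The 48 h and 96 h libraries were above all others and did not overlap each other. DKK3 was 4.35-fold higher at 96 h than at 0 h (log2 change 2.12 ± 0.28, edgeR adjusted p = 2.53e-06) and 2.94-fold higher at 48 h than at 0 h (1.56 ± 0.27, adjusted p = 0.000141), and both passed in all 20 alternatives. The step at 96 h against 48 h was 0.56 ± 0.25 and did not pass (adjusted p = 0.394). The gene overlaps USP47 on the other strand, though not in its last exon, and the strand setting of the counting is not given in the sources used here.

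Earlier changes of DKK3 were smaller. At 12 h against 0 h it rose by 0.86 ± 0.27 (adjusted p = 0.0349), and over the alternatives the adjusted p ranged from 0.0126 to 0.275. That call was lost without replicate 1 of 0 h (0.65, adjusted p = 0.275), replicate 2 of 0 h (1.08, 0.0553), replicate 1 of 12 h (0.79, 0.186) or replicate 2 of 12 h (0.95, 0.0761), by DESeq2 (0.87, 0.115) and with library sums thinned to the smallest (0.86, 0.167). At 24 h against 0 h it was 0.53 ± 0.28 (adjusted p = 0.268). The step at 48 h against 24 h was 1.03 ± 0.26 (adjusted p = 0.0181, range 0.00947 to 0.16) and was lost without replicate 2 of 24 h (0.82, adjusted p = 0.16), replicate 1 of 48 h (1.03, 0.08) or replicate 2 of 48 h (1.01, 0.0758). It was also lost by DESeq2 (1.03, adjusted p = 0.0676), with at most 25% mitochondrial counts (0.79, 0.115), with thinned library sums (0.92, 0.134) and in a fit on the 4 libraries compared (1.03, 0.0648).

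**Figure D1:**
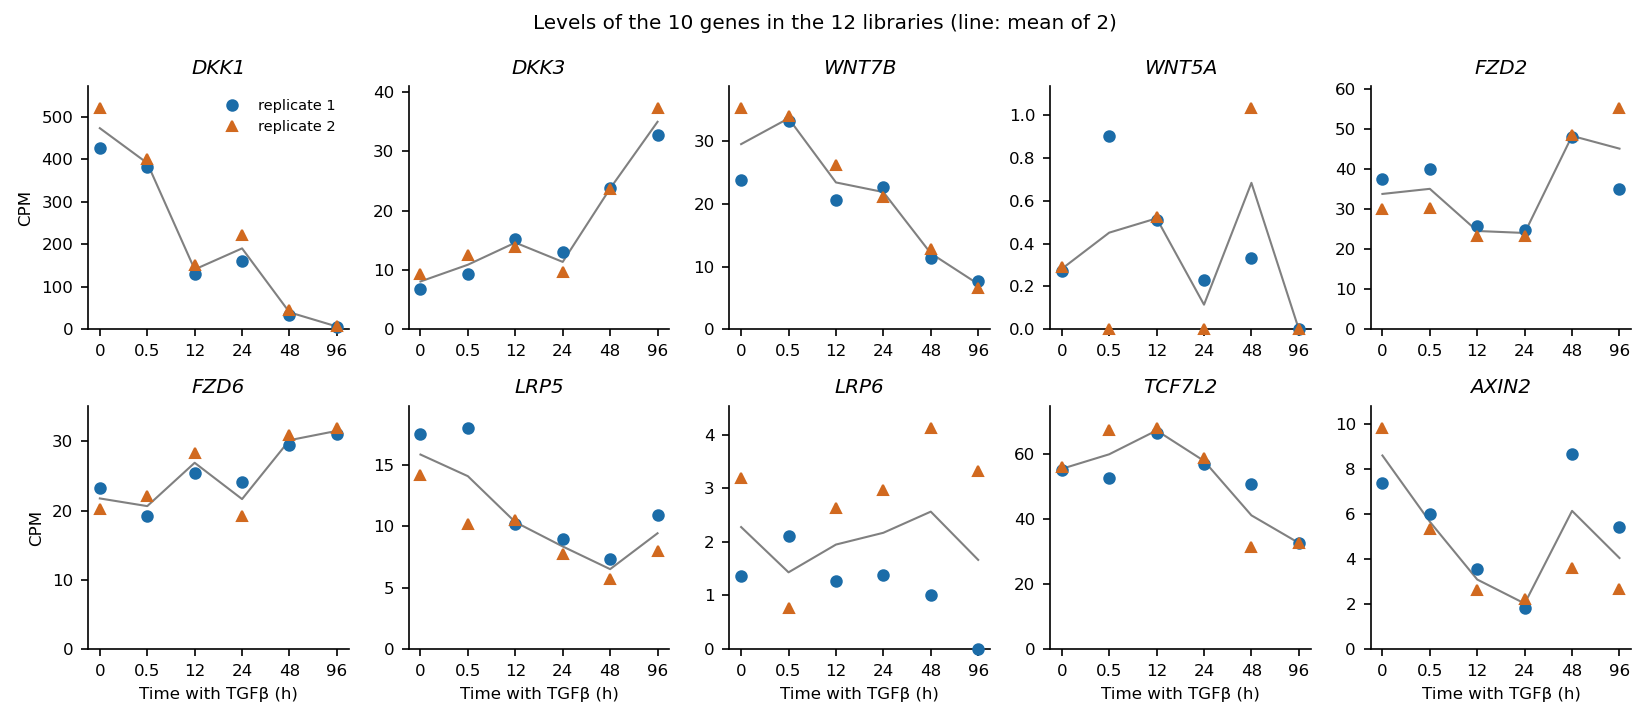
CPM (y axis, linear, from 0, a scale of its own per panel) of the 10 genes at the 6 times (x axis, h, not to scale), with a point per library and a line through the mean of 2. DKK1 ended at 6.22 and 6.66 CPM and DKK3 at 32.7 and 37.3 CPM (96 h), while WNT5A stayed at or below 1.03 CPM.

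Set against each other within a library, the 2 genes changed places. UMIs of DKK1 per UMI of DKK3 (0.5 added to both counts) numbered 61.1 and 55.4 (0 h), 40.4 and 31.9 (0.5 h), 8.42 and 10.8 (12 h), 12.1 and 22.5 (24 h), 1.42 and 1.92 (48 h), and 0.200 and 0.186 at 96 h. DKK1 exceeded DKK3 in the 10 libraries of the first 5 times, and DKK3 exceeded DKK1 in both 96 h libraries. The mean log2 ratio was -2.37 ± 0.07 at 96 h against 5.86 ± 0.10 at 0 h (SD, n = 2 each), a difference of -8.24. Times accounted for 99.3% of the variance of the log2 ratio, the highest share of all 10395 ways to place the 12 libraries in 6 pairs (exact permutation test, one-sided, p = 0.0001, the smallest it can give). Both genes were chosen with earlier results of these data known, which this p does not allow for. The libraries of 24 h differed most between replicates (SD 0.63).

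**Figure D2:**
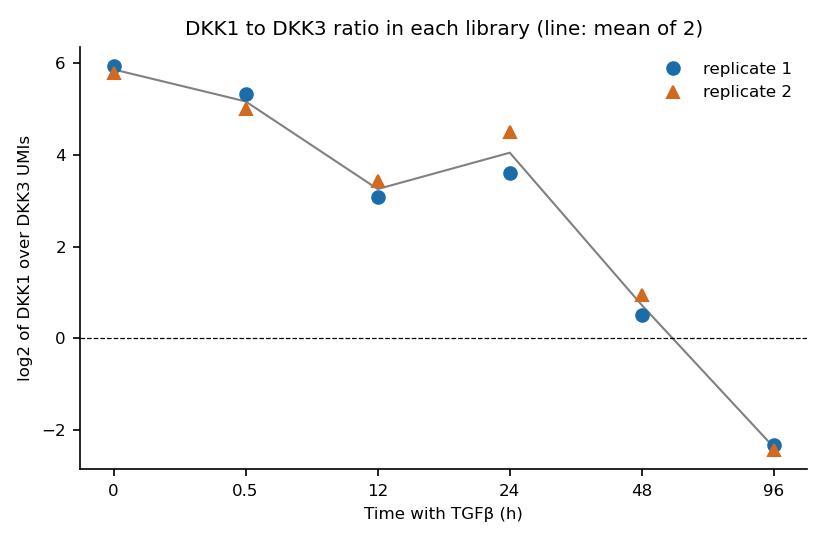
Log2 of DKK1 over DKK3 UMIs (y axis) in each library at the 6 times (x axis, h, not to scale), with a line through the mean of 2 and a dashed line at equal counts. The ratio lay between 5.79 and 5.93 (0 h) and between -2.43 and -2.32 at 96 h.

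The change was also seen cell by cell. To compare cells of unequal depth, each was thinned to a common number of UMIs, which left out 293 of 1871 cells. The highest numbers were 75 of 149 in replicate 2 of 48 h and 71 of 189 in replicate 2 of 24 h. Shares of thinned cells in these libraries thus describe their deeper cells only. The share of thinned cells with a DKK1 UMI was 91.1% and 93.4% (0 h), 90.3% and 94.9% (0.5 h), 60.3% and 55.6% (12 h), 61.9% and 72.0% (24 h), 26.2% and 25.7% (48 h), and 5.88% and 7.94% at 96 h. At 96 h the exact 95% binomial intervals, which cover counting error only, were 1.23% to 16.2% and 2.63% to 17.6%. Without thinning the mean share was 13.7% at 96 h against 94.3% at 0 h.

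For DKK3 the share of thinned cells with a UMI was 6.51% and 12.5% (0 h), 9.68% and 12.6% (0.5 h), 19.5% and 16.4% (12 h), 17.1% and 11.9% (24 h), 24.6% and 18.9% (48 h), and 35.3% and 38.1% at 96 h. Without thinning it averaged 50.1% at 96 h against 14.9% at 0 h. Kept cells held a mean of 0.152 ± 0.006 DKK1 UMIs at 96 h against 9.72 ± 1.58 at 0 h, and 0.826 ± 0.069 DKK3 UMIs at 96 h against 0.165 ± 0.039 at 0 h (SD, n = 2 libraries each). Both the share of cells and the mean number per cell thus moved with time. The mean takes in cells without a UMI, so the 2 measures are tied and are not separate results.

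The spread of UMIs among cells was also measured. In thinned cells the variance of DKK1 UMIs was 2.96 to 4.01 times the mean from 0 h to 48 h and 0.948 times at 96 h, while for DKK3 it was between 0.987 and 1.21 times at all 6 times (means of 2 libraries). The means themselves were far apart: thinned cells held 0.0588 and 0.0794 DKK1 UMIs at 96 h against 5.10 and 6.63 at 0 h, and 0.412 and 0.571 DKK3 UMIs at 96 h against 0.0769 and 0.125 at 0 h, so the ratios do not rank the 2 genes. The 10% of kept cells with the most DKK1 UMIs held 30.3% and 27.6% of them (0 h), 42.6% and 44% (12 h), 58.4% and 69.7% (48 h), and 62.5% and 80% at 96 h. For DKK3 these shares were 33.3% and 39.3% at 96 h against 92% and 56.3% at 0 h. These shares come from unthinned counts, whose means differ between times, and no test of their difference was made. At 96 h no kept cell held more than 1 (replicate 1) or 2 (replicate 2) DKK1 UMIs, of 8 and 10 in all. The DKK3 shares at 0 h rest on 25 and 32 UMIs. Shares from such low counts are set largely by the counts, and do not show whether UMIs gathered in fewer cells.

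At 0 h, 30 of 321 thinned cells held UMIs of both genes, 266 held DKK1 only, 0 held DKK3 only (which allows up to 0.935% of cells with such UMIs at this depth and does not limit the cells that express DKK3 alone) and 25 held neither. At 96 h, 4 of 114 thinned cells held both, 4 DKK1 only, 38 DKK3 only and 68 neither. Within libraries, Spearman's rho between the 2 genes over cells was -0.132 to 0.118, a description of sparse counts that share their library.

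Wells with fewer than 1000 detected genes also held both RNAs. Pooled over 2 libraries, DKK1 took 501 CPM in these wells before TGFβ, then 415 (0.5 h), 114 (12 h), 182 (24 h), 55.9 (48 h) and 5.06 (96 h). DKK3 took 8.54 CPM in these wells before TGFβ, then 22.2 (0.5 h), 10.7 (12 h), 26.0 (24 h), 35.6 (48 h) and 40.4 (96 h), from 3 to 16 UMIs a time, with 49.7 and 26.0 CPM in the 2 libraries of 96 h. The order of the 6 times was the same as in kept cells for DKK1 but not for DKK3, and whether such wells held cells or free RNA was not tested. Only A549 cells were sorted, so no cell type that lacks these genes could set a background for the shares.

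**Figure D3:**
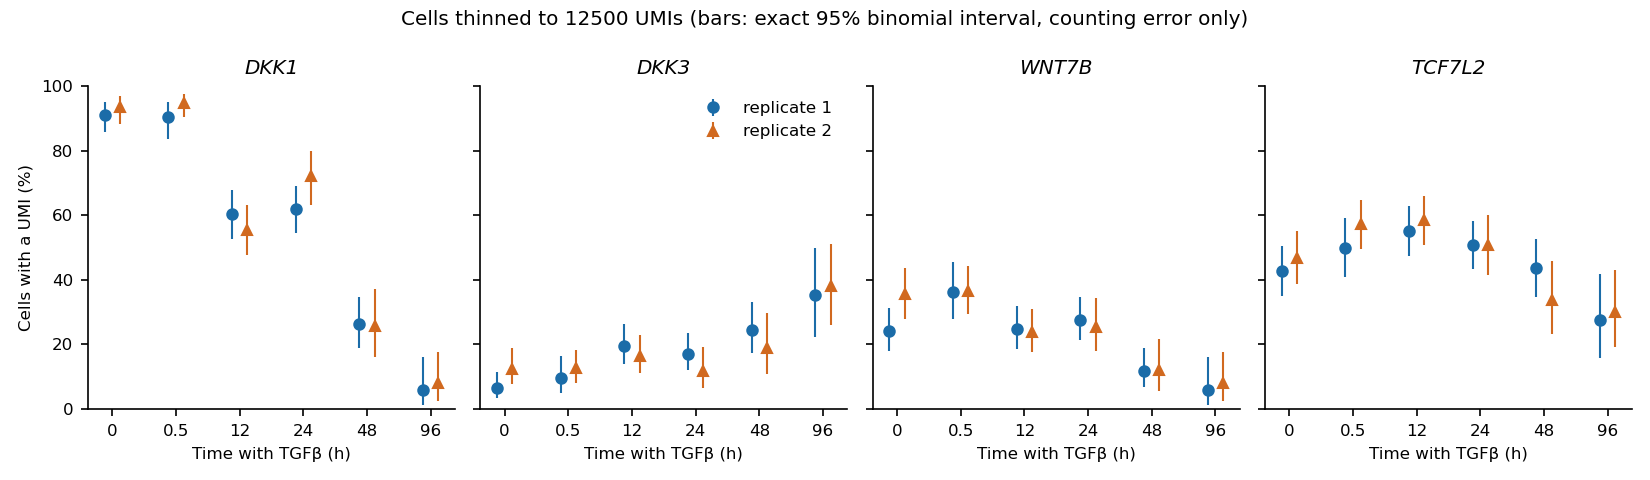
Share of cells with a UMI (y axis, %) after thinning to a common number of UMIs, by library and time (x axis, h, not to scale), for DKK1, DKK3, WNT7B and TCF7L2; bars are exact 95% binomial intervals that cover counting error only. DKK1 ended at 5.88% and 7.94% and DKK3 at 35.3% and 38.1% at 96 h.

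Of the ligands, WNT7B fell and WNT5A was barely detected. WNT7B (chr22:45920366-45977162, minus strand, 4 exons), a ligand of the developing lung epithelium, was at 23.8 and 35.3 CPM (0 h), 33.3 and 34.0 (0.5 h), 20.6 and 26.3 (12 h), 22.7 and 21.1 (24 h), 11.4 and 12.9 (48 h), and 7.78 and 6.66 at 96 h. The libraries of 48 h and 96 h lay below all earlier ones. WNT7B was lower at 96 h than at 0 h (log2 change -2.03 ± 0.32, edgeR adjusted p = 3.45e-05, passed in all 20 alternatives) and at 48 h than at 0 h (-1.29 ± 0.26, adjusted p = 0.000623). The 48 h call was lost when library sums were thinned to the smallest (-0.75, adjusted p = 0.147; range 1.44e-05 to 0.147). Between times, the step at 48 h against 24 h was -0.87 ± 0.26 (adjusted p = 0.0546) and passed in 6 of 20 alternatives, without replicate 1 of 0 h (-0.87, adjusted p = 0.0428) and without replicate 2 of 0 h (-0.89, 0.0404) among them. The share of thinned cells with a WNT7B UMI averaged 6.91% ± 1.45 at 96 h against 29.9% ± 7.97 at 0 h (SD, n = 2 libraries each).

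WNT5A (chr3:55465715-55490539, minus strand, 5 exons), a ligand best known for non-canonical signaling, had 0 to 3 UMIs per library and 13 in all. It was left out of the test by the filter on low counts, and its level at 96 h, 0 UMIs in 2 libraries, allows up to 1.08 CPM (3 counts over both libraries). A fall of WNT5A was not detectable at this depth. No library was above 1.03 CPM, so no rise beyond that level was seen.

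Of the Frizzled receptors, FZD2 changed in 1 comparison and FZD6 passed in none. FZD2 (chr17:44557484-44561262, plus strand, a single exon) was at 37.5 and 30.1 CPM (0 h), 40.0 and 30.2 (0.5 h), 25.7 and 23.4 (12 h), 24.8 and 23.3 (24 h), 48.2 and 48.5 (48 h), and 35 and 55.3 at 96 h. Its libraries of 12 h and 24 h were below all others. The step at 48 h against 24 h, 2.0-fold higher, was the change that passed (log2 1.0 ± 0.22, edgeR adjusted p = 0.00677, range 0.000656 to 0.0555), and it was lost without replicate 2 of 24 h (0.93, adjusted p = 0.0555). At 96 h against 0 h FZD2 was at 0.43 ± 0.23 (adjusted p = 0.192), with 96 h libraries on both sides of those of 48 h. With no upper limit on UMIs and genes per well this passed (0.63, adjusted p = 0.019).

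FZD6 (chromosome 8), a receptor of the planar polarity branch, was at 23.3 and 20.3 CPM (0 h), 19.2 and 22.1 (0.5 h), 25.5 and 28.4 (12 h), 24.1 and 19.3 (24 h), 29.4 and 30.9 (48 h), and 31.1 and 32.0 at 96 h. Both 96 h libraries were above both of 0 h, by 0.53 ± 0.23 on the log2 scale, which did not pass (adjusted p = 0.0993). With no upper limit per well it passed (0.64, adjusted p = 0.0252).

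The co-receptors LRP5 and LRP6 are the direct targets of DKK1 protein. LRP5 (chr11:68312591-68449275, plus strand, 23 exons) was at 17.5 and 14.2 CPM (0 h), 18.0 and 10.2 (0.5 h), 10.2 and 10.5 (12 h), 8.95 and 7.78 (24 h), 7.36 and 5.67 (48 h), and 10.9 and 7.99 at 96 h. Every library from 12 h on was below both of 0 h. LRP5 was lower at 48 h than at 0 h (-1.25 ± 0.33, edgeR adjusted p = 0.00875, range 0.00209 to 0.0847) and at 24 h than at 0 h (-0.91 ± 0.30, adjusted p = 0.0463, range 0.0185 to 0.383).

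These LRP5 calls were lost in many alternatives. That at 48 h was lost without replicate 1 of 0 h (-1.10, adjusted p = 0.0847) or replicate 2 of 48 h (-1.11, 0.0684) and with thinned library sums (-1.33, 0.0519). That at 24 h was lost without replicate 1 of 0 h (-0.75, adjusted p = 0.296), replicate 2 of 0 h (-1.06, 0.0662), replicate 1 of 24 h (-1.03, 0.133) or replicate 2 of 24 h (-0.80, 0.22). It was also lost without replicate 1 (adjusted p = 0.0556) or 2 (0.0657) of 12 h and replicate 1 (0.0619) or 2 (0.0613) of 96 h, where the log2 change was -0.91, -0.88, -0.89 and -0.89. With all libraries kept it was lost by DESeq2 (-0.92, adjusted p = 0.171) and with thinned library sums (-0.71, 0.383). At 96 h against 0 h LRP5 was at -0.76 ± 0.35 (adjusted p = 0.128), which passed with no upper limit per well (-0.96, adjusted p = 0.0318).

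LRP6 (chr12:12116025-12267044, minus strand, 23 exons) had 0 to 11 UMIs per library. No change passed, with log2 changes against 0 h between -0.69 ± 0.80 and 0.03 ± 0.82 (adjusted p of 0.852 to 1). With SEs of this size, a small or moderate change of LRP6 was not detectable at this depth. Its last exon overlaps BCL2L14 on the other strand, so its counts are uncertain.

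The nuclear factor and the feedback target followed other courses. TCF7L2 (chr10:112950247-113167678, plus strand, 15 exons), a β-catenin partner on DNA, was at 55.0 and 55.9 CPM (0 h), 52.6 and 67.3 (0.5 h), 66.5 and 68.0 (12 h), 56.9 and 58.9 (24 h), 50.8 and 31.5 (48 h), and 32.7 and 32.6 at 96 h. Both 96 h libraries lay below both of 0 h, and the 2 libraries of 48 h differed most. TCF7L2 was 0.589 of the 0 h level at 96 h (log2 change -0.76 ± 0.23, edgeR adjusted p = 0.0155, range 0.00281 to 0.112). The call was lost without replicate 1 of 0 h (-0.79, adjusted p = 0.0525), replicate 1 of 96 h (-0.77, 0.0848) or replicate 2 of 96 h (-0.78, 0.101) and with thinned library sums (-0.54, 0.112). At 48 h it was at -0.40 ± 0.20 against 0 h (adjusted p = 0.186) and -0.46 ± 0.20 against 24 h (0.227), and without replicate 1 of 48 h both passed (-0.82, adjusted p = 0.0226, and -0.88, 0.0416).

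AXIN2 (chr17:65528563-65561648, minus strand, 11 exons), a scaffold of the β-catenin destruction complex and a widely used readout of canonical WNT signaling, was at 7.39 and 9.84 CPM (0 h), 6.01 and 5.33 (0.5 h), 3.57 and 2.63 (12 h), 1.83 and 2.22 (24 h), 8.69 and 3.61 (48 h), and 5.45 and 2.66 at 96 h. The lowest libraries were those of 24 h, and the 2 libraries of 48 h stood apart from each other. AXIN2 was lower at 24 h than at 0 h (-2.09 ± 0.47, edgeR adjusted p = 0.00279, range 0.000311 to 0.0533) and at 12 h than at 0 h (-1.46 ± 0.43, adjusted p = 0.0207, range 0.0106 to 0.181). The 24 h call was lost without replicate 1 of 24 h (-1.93, adjusted p = 0.0533). The 12 h call was lost without replicate 2 of 0 h (-1.25, adjusted p = 0.156), replicate 1 of 12 h (-1.70, 0.0687) or replicate 2 of 12 h (-1.23, 0.181), by DESeq2 (-1.47, 0.0953) and with at most 25% mitochondrial counts (-1.48, 0.0693).

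At 48 h and 96 h AXIN2 did not pass. Against 0 h it was at -0.40 ± 0.41 at 48 h (adjusted p = 0.559) and -1.11 ± 0.51 at 96 h (0.125). The step at 48 h against 24 h was 1.68 ± 0.51 (adjusted p = 0.0534), and passed without replicate 2 of 48 h (2.08, adjusted p = 0.0242). Counts were 8 and 6 UMIs at 24 h and 27 and 34 UMIs at 0 h. With library sums thinned to the smallest, AXIN2 was not tested. AXIN2 overlaps a second protein-coding gene model on the same strand, though not in its last exon, and reads outside that exon can be shared.

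**Figure D4:**
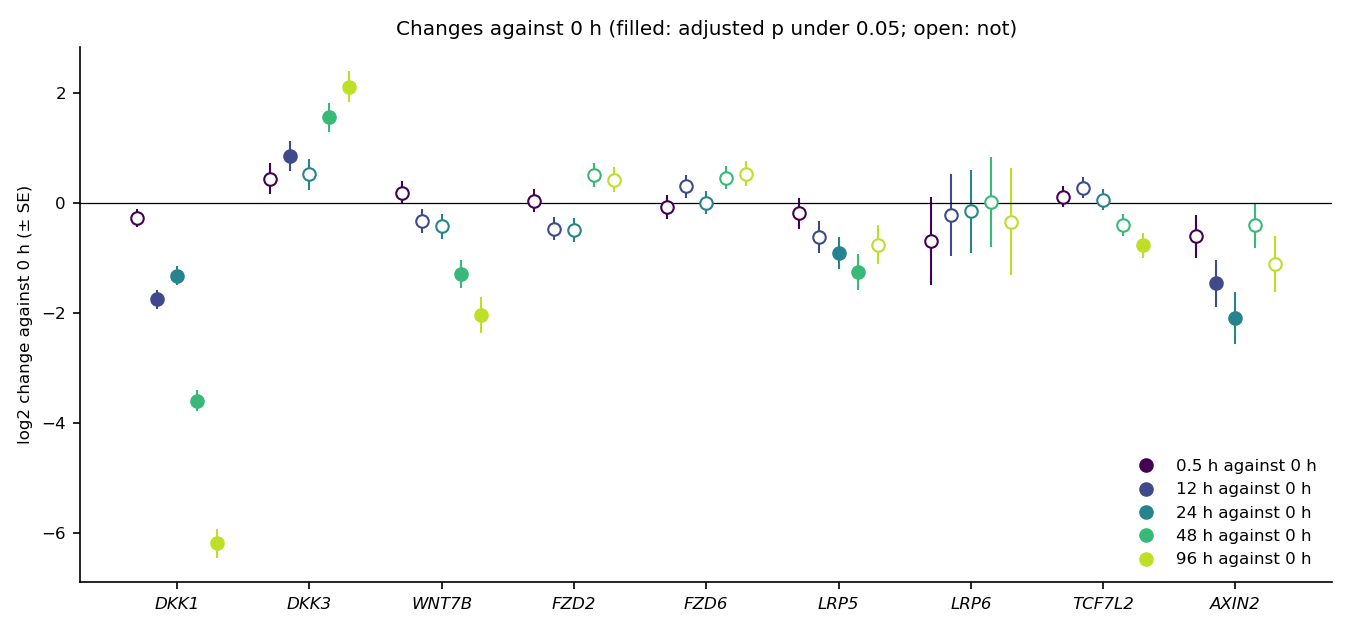
Log2 change against 0 h (y axis, ± SE) of the 9 tested genes at the 5 later times (colours, early to late from left to right); filled points passed at an adjusted p under 0.05 and open ones did not. At 96 h the filled points were DKK1 (-6.19), WNT7B (-2.03), TCF7L2 (-0.76) and DKK3 (2.12).

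Over all 9 tested members, 7 differed among the 6 times in the edgeR test (28.2% of all 10465 genes tested did), the exceptions being FZD6 (adjusted p = 0.113) and LRP6 (adjusted p = 0.973). Of the 7, AXIN2 was lost without replicate 2 of 0 h (adjusted p = 0.0616), and LRP5 without replicate 1 of 0 h (0.128), replicate 2 of 48 h (0.0764) or replicate 2 of 96 h (0.0527). AXIN2 was also lost with at most 25% mitochondrial counts (adjusted p = 0.0687), and LRP5 by DESeq2 (adjusted p = 0.109) and with library sums thinned to the smallest (0.275). With no upper limit per well FZD6 passed (adjusted p = 0.0317). Against 0 h, 0 members changed at 0.5 h (0.392% of all genes rose and 0.0478% fell), with 0 members at an unadjusted p under 0.05 and 0 called by DESeq2. At 12 h against 0 h, 1 member rose and 2 fell (all genes 8.46% and 5.83%), and at 24 h against 0 h none rose and 3 fell (7.62% and 5.56%). At 48 h 1 rose and 3 fell (10.0% and 8.48%), and at 96 h 1 rose and 3 fell (12.5% and 11.1%).

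Between consecutive times, 1 member fell at 12 h against 0.5 h (all genes 7.11% higher and 4.92% lower). At 24 h against 12 h 0 members changed (0% of all genes in either direction), with 1 member and 572 genes at an unadjusted p under 0.05, and DESeq2 called 0 members and 2 genes. At 48 h against 24 h 2 rose and 1 fell (2.61% and 2.63%), and at 96 h against 48 h 1 fell (0.803% and 0.411%). The median log2 change of the 9 was -0.76 at 96 h against 0 h, and that of all genes tested 0.02. With so few members, chosen with earlier results of these data known, a share above that of all genes is a description only.

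Likeness of profile was measured by Pearson's r of log2(CPM + 1) over the 12 libraries, which share their time points, and is a description. The genes most like DKK1 were LGR4 (0.982), CTNNAL1 (0.975), MMP7 (0.974), AKR1B10 (0.972) and WNT7B (0.971), so a member was among the 5. By Spearman's rho the 5 were MRPS35 (0.993), PTGR1 (0.993), MAIP1 (0.979), S100A6 (0.979) and NAA15 (0.972), with no member among them (WNT7B 0.909, LGR4 0.93). Those most like DKK3 were GALNT18 (0.962), RAB3B (0.956), ABHD2 (0.954), SCD (0.952) and TSPAN3 (0.945). DKK1 and DKK3 themselves had r = -0.959, and DKK1 and AXIN2 0.198.

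In the wider WNT pathway, 88 further genes of a list by role were in the table and 53 were tested. At 96 h against 0 h, 10 of these rose and 3 fell (all genes 12.5% and 11.1%), with a median log2 change of 0.20 against 0.02 for all genes. At 12 h against 0 h 11 rose and 3 fell (all genes 8.46% and 5.83%), at 24 h 9 rose and 5 fell (7.62% and 5.56%), and at 48 h 9 rose and 4 fell (10.0% and 8.48%). At 0.5 h, 0 of the 53 passed. The secreted antagonists tested were 4 genes, DKK1 and DKK3 included. All 4 differed among the 6 times (28.2% of all genes did). At 96 h 1 was higher (DKK3) and 1 lower (DKK1). SFRP1 averaged 103 ± 22.2 CPM at 96 h against 91.8 ± 0.8 at 0 h (SD, n = 2 each). SFRP4 averaged 5.33 ± 0.94 CPM at 96 h, 21.1 ± 2.3 at 12 h and 9.86 ± 0.39 at 0 h. Neither SFRP gene passed at 96 h against 0 h.

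Among ligands and their secretion, WNT5B, a close relative of WNT5A, had 12 and 13 UMIs at 96 h (9.33 and 8.65 CPM). Both 0 h libraries had 0 UMIs (edgeR adjusted p = 1.04e-05). The pooled level at 96 h was 21.2-fold above a floor of 3 counts over both 0 h libraries. At 48 h it was 12.5-fold above that floor, at 24 h 6.04-fold and at 12 h 9.19-fold. The floor allows for counting error at 0 h only. Counts of the later times were taken as they stand, and spread between libraries is not covered. The 24 h call of WNT5B was lost without replicate 1 of 24 h (adjusted p = 0.0559). PORCN, which adds the lipid that WNTs need for secretion, averaged 32.8 ± 11.1 CPM at 96 h against 5.92 ± 0.23 at 0 h (SD, n = 2 each; 2.47 ± 0.31 SE, adjusted p = 1.7e-06). WLS, the carrier of WNTs to the cell surface, averaged 36.5 ± 11.1 CPM at 96 h against 12.8 ± 1.7 at 0 h (1.5 ± 0.31, adjusted p = 0.000974), a call lost without replicate 1 of 96 h (1.15, adjusted p = 0.0518).

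Among receptors, LGR4 fell to 21.0 and 28.6 CPM (96 h), against 127 and 120 CPM (0 h) (-2.30 ± 0.20, adjusted p = 4.5e-09). ROR1, a receptor of WNT5 ligands, was at 10.9 and 4.66 CPM at 96 h against 28.2 and 27.5 (0 h) (-1.87 ± 0.42, adjusted p = 0.00221; without replicate 2 of 96 h -1.37, 0.0797). PTK7, a co-receptor of the polarity branch, was at 12.4 and 9.32 CPM at 96 h against 1.1 and 1.74 (0 h) (2.90 ± 0.52, adjusted p = 0.000174). The receptor list as a whole had 1 gene higher and 2 lower at 96 h among its 14 tested, members included, beside 12.5% and 11.1% of all genes.

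Among nuclear factors, TCF7 and TCF7L1, relatives of TCF7L2, rose while TCF7L2 fell. TCF7 was at 19.4 and 30.0 CPM at 96 h against 4.11 and 3.76 (0 h) (2.65 ± 0.33, adjusted p = 1.29e-06), and at 12 h already at 21.4 and 23.9 CPM (2.51 ± 0.30, adjusted p = 1.17e-06). TCF7L1 was at 14 and 19.3 CPM at 96 h against 4.93 and 2.03 (0 h) (2.25 ± 0.47, adjusted p = 0.00107). Both passed at 96 h in all alternatives.

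In the cytoplasm, CTNNB1, which encodes β-catenin, averaged 395 ± 10.4 CPM at 96 h against 250 ± 18.0 at 0 h (SD, n = 2 each; 0.66 ± 0.16, adjusted p = 0.00444; without replicate 2 of 0 h 0.56, 0.0623). DAAM1, a formin of the polarity branch, averaged 37.0 ± 1.5 CPM at 96 h against 13.4 ± 0.9 at 0 h (1.47 ± 0.25, adjusted p = 9.23e-05). The cytoplasmic list had 2 of 18 tested genes higher and 0 lower at 96 h, beside 12.5% and 11.1% of all genes.

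Targets and feedback genes did not move together at 96 h. RNF43, which removes Frizzled receptors from the surface, had 3 UMIs at 96 h against 48 at 0 h, a ratio of 0.159 (exact 95% counting interval 0.0317 to 0.494; edgeR adjusted p = 0.00639, and 0.108 without replicate 2 of 96 h). NKD1, an inhibitor of Dishevelled, rose by 2.10 ± 0.69 at 96 h (adjusted p = 0.0291) and its call was lost in 6 alternatives, among them without replicate 1 (adjusted p = 0.12) or 2 (0.0936) of 0 h and replicate 2 of 96 h (0.595). CCND1, a G1 cyclin, rose by 0.83 ± 0.21 (adjusted p = 0.00431), and lost its call without replicate 1 of 0 h (adjusted p = 0.114) or replicate 2 of 96 h (0.169). With AXIN2 at -1.11, not passing, the 6 tested targets had 3 higher (TCF7, NKD1 and CCND1) and 1 lower at 96 h, beside 12.5% and 11.1% of all genes. At 12 h against 0 h the same 3 were higher and 3 lower (all genes 8.46% and 5.83%). The lower were AXIN2, RNF43 (mean 2.21 CPM against 6.74 at 0 h) and ZNRF3 (9.47 against 17.3). The 12 h calls of these 3 and of NKD1 were lost in several alternatives.

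**Figure D5:**
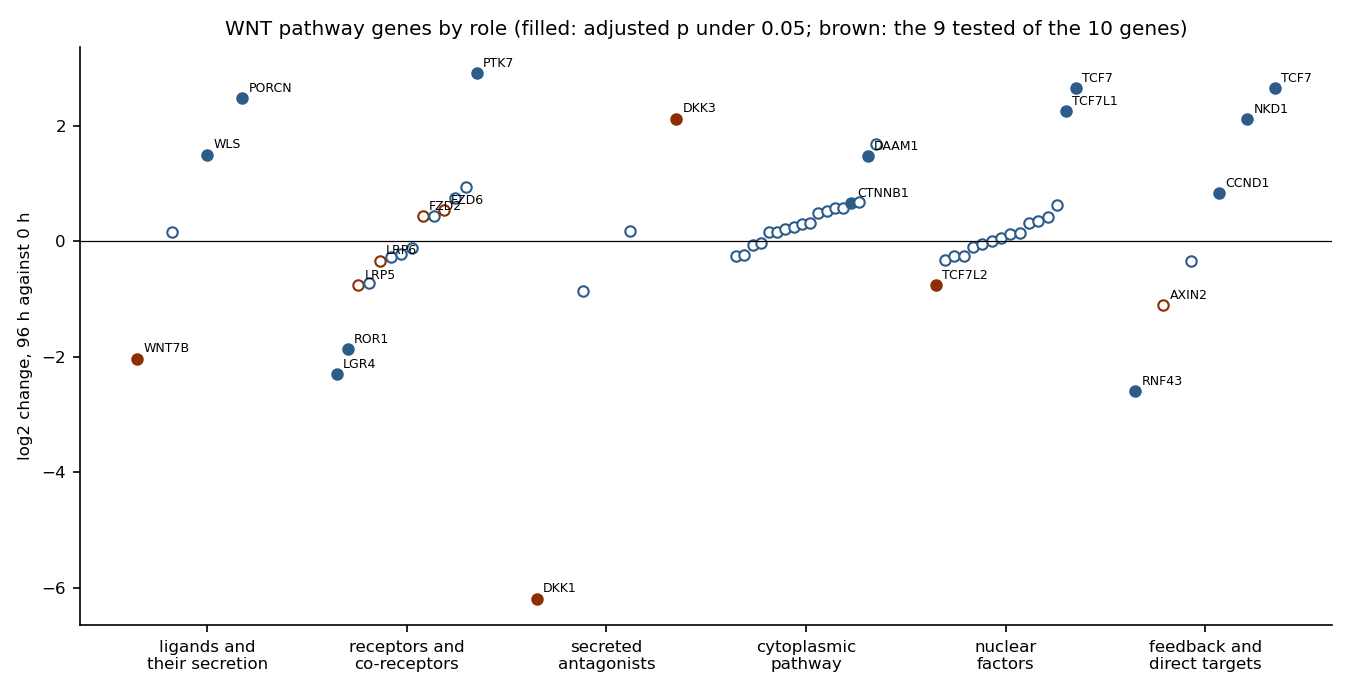
Log2 change at 96 h against 0 h (y axis) of the tested WNT pathway genes in 6 lists by role (x axis), sorted within each list; filled points passed at an adjusted p under 0.05, brown points are the 9 tested members, TCF7 stands in 2 lists, and WNT5B is left out because its 0 h libraries were at 0. DKK1 (-6.19) was the lowest and PTK7 (2.90) the highest of the genes drawn.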

How the data were processed

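CEL-Seq2 libraries of sorted A549 cells were used as the count table deposited by the authors, whole-number UMI counts per gene and well, not normalized. Per the labels, the authors trimmed with Trim Galore 0.6.7, aligned to GRCh38 with HISAT2 2.2.1 and counted with featureCounts 2.0.1 and UMI-tools, while the study's methods give later versions of Trim Galore and featureCounts. For annotation release and strand, the setting is not given in the sources used here. Wells with 100 to 40000 UMIs, 2000 to 7000 genes and at most 35% mitochondrial counts were kept, as in the study's methods, which state a slightly higher number of cells. Protein-coding counts of the kept cells of a library were added up and tested with edgeR 4.0.16 (R 4.3.3; TMM, filterByExpr, quasi-likelihood F test, a mean per time over all 12 libraries, Benjamini-Hochberg adjusted p under 0.05 over 10465 genes). One UMI was worth 0.222 to 0.791 CPM, so near that level a member can be told only as seen or not seen. The edgeR steps were run on simulated data with the same spread for every gene, which checks the steps and not the calls in these libraries. The SE of a log2 change is its size over the square root of F. Per-cell values used Python 3.11.15, numpy 2.4.6 and scipy 1.17.1 (seed 20240508), and no doublet caller was run because 1 cell was sorted per well. Gene positions are from GENCODE 44.

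All 10 members were named in every comparison. Of the wider list, genes that passed against 0 h with libraries of the 2 times not overlapping could be named, up to 4 each way, together with those that passed over all times, and the 5 genes most like DKK1 and DKK3. Members and lists were chosen with earlier results of these data known. Alternatives were DESeq2 1.42.0, RLE scaling, no filter, the replicate number as a block, each library left out, other limits on wells (25% mitochondrial counts, no upper limit), thinned sums, and a fit on the 4 libraries compared.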

Additional observations from a re-analysis of the deposited data

How the results depend on the processing

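No called change turned its direction in any alternative. Of 90 member results (9 genes, 10 tests), 70 had the same call throughout, and 15 of the 26 called held in every alternative, among them all of DKK1, with the others named beside their values. DKK3, WNT7B and DKK1 at 96 h against 0 h held in all. The DKK1 to DKK3 ratio kept 99.1% to 99.8% of its variance between times when single libraries were left out (exact permutation p at most 0.00058).

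Fewer calls were made in most comparisons when library sums were thinned to the smallest: 946 genes and 1 member at 12 h against 0 h (1495 and 3 before), 882 and 1 at 24 h (1379 and 3), 2 members at 48 h (4), 830 genes at 12 h against 0.5 h (1259) and 354 at 48 h against 24 h (548). At 24 h against 12 h there were more, 3 genes (0 before). AXIN2 was not tested in the thinned sums, so part of the drop in members at 12 h and 24 h is its absence. DESeq2 called 1 member at 12 h against 0 h and 2 genes at 24 h against 12 h. With no upper limit on wells, 7 members passed at 96 h against 0 h (4). Without the filter on low counts, 31 genes passed at 24 h against 12 h, 5 members at 48 h against 24 h (3) and 258 genes at 96 h against 48 h (127). With at most 25% mitochondrial counts 1 gene passed at 24 h against 12 h, and on the 4 libraries compared 1 gene there, 289 at 48 h against 24 h and 40 at 96 h against 48 h.

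Leaving out 1 library gave 23 to 51 genes at 0.5 h against 0 h (46), 917 to 1628 with 1 to 3 members at 12 h, 858 to 1502 with 1 to 3 members at 24 h, 1248 to 1990 at 48 h (1935) and 1490 to 2625 at 96 h (2477). Between consecutive times it gave 752 to 1389 at 12 h against 0.5 h, 0 to 3 at 24 h against 12 h, 269 to 541 with 1 to 4 members at 48 h against 24 h, and 32 to 134 at 96 h against 48 h. A lone library is assumed to vary like the other groups.

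The replicate numbers did not pair the libraries over all 6 times: deviations of same-numbered libraries correlated over 0.1 in 6 of 15 pairs of times (range over the 15 -0.0952 to 0.292), those among 0 h, 12 h, 24 h and 48 h. With the number as a block, 21 genes passed at 24 h against 12 h, 823 genes and 5 members at 48 h against 24 h (WNT7B, adjusted p = 0.03, and AXIN2, 0.036, joined), and 237 genes at 96 h against 48 h; the ratio gave 99.5% (exact permutation p = 0.0014). The numbers coincide with the barcode sets.

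Shares of cells with a UMI depend on depth: 98 of 120 moved by more than 1 SD with cells thinned to a lower number of UMIs or not thinned. Depth limits LRP6, where small or moderate changes were not detectable, and WNT5A, where a fall was not. It also limits the 96 h libraries, with the fewest cells.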
